A study of Mus musculus with 4 samples.

Results

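The cells called non-dividing Atoh1-high here are a small class of the rhombic lip lineage in the E14.5 mouse cerebellum (E, embryonic day). They carry Atoh1 UMIs and none of a few chosen genes of differentiation and mitosis. The name stands for that choice and does not show that they had left the cell cycle. A cell barcode was kept with at least 500 genes, at least 1000 unique molecular identifiers (UMIs, each standing for 1 captured RNA molecule) and at most 10% mitochondrial UMIs. A kept cell was a member with at least 2 UMIs of Atoh1, 0 of Neurod1, at most 1 of Meis2, 0 over the 6 genes Mki67, Top2a, Cenpf, Ube2c, Cdk1 and Birc5, and at most 1 over the 4 histone genes Hist1h1b, Hist1h2ap, Hist1h2ae and Hist1h1a. This held for 134 of 12546 kept cells. The nearest class, called dividing Atoh1-high cells here, met the limits on Atoh1, Neurod1 and Meis2 and failed a limit on the cycling or histone genes. It had 397 cells.

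The study compared 2 control and 2 En1/2 conditional knockout (CKO) libraries of tdTomato-positive cells, sorted from dissociated cerebella and sequenced with 10x Genomics 3′ chemistry. Control embryos were Atoh1-Cre/+; R26LSL-tdT/+, and CKO embryos carried in addition En1lox/lox, En2lox/lox. Both groups therefore carry the Atoh1-Cre driver and the tdT reporter, and deletion of the floxed alleles is limited to cells in which that driver was or had been active, so cells outside the Atoh1 lineage keep both genes. Animals were pooled for each library, no label gives their number, and the labels do not say which libraries come from the same experiment, so p-values measure only the spread between these pools.

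The rhombic lip is the dorsal germinal zone of the hindbrain. Its cells switch on the transcription factor Atoh1, leave over the surface of the cerebellar anlage, and become granule cell precursors or, when born earlier, excitatory neurons of the cerebellar nuclei. Precursors held by Atoh1 do not yet express Neurod1, which marks the start of granule neuron differentiation, while sonic hedgehog, Notch, BMP and Wnt signals act on their growth and fate. En1 and En2 are homeobox transcription factors that pattern the midbrain and anterior hindbrain and act again in the developing cerebellum.

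The sequences before the start sites of Atoh1, which the rule itself makes high in the members, and of Sp5 are shown. Both hold the same short Wnt-type motif and were picked for it. Start sites and bases are those of RefSeq on GRCm38.p6, and both starts are also the gene starts in GENCODE. The Atoh1 window is chr6:64728875-64729124 and the Sp5 window chr2:70474673-70474922, both on the plus strand and 250 bases long, ending at the base before the start. Capitals mark CTTTGAT, a form of the site of TCF/LEF factors, which carry the Wnt signal to DNA.
Atoh1: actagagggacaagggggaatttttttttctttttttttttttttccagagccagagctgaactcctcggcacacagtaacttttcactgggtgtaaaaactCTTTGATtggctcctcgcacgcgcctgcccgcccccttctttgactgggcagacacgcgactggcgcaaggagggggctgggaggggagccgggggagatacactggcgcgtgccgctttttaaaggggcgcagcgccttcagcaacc
Sp5: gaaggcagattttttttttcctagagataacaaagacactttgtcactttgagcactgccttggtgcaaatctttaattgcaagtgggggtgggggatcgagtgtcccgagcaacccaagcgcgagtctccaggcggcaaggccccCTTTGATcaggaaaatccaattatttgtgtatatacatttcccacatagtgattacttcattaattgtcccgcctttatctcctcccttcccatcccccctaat
The motif starts 148 bases before the Atoh1 start and 104 bases before the Sp5 start. Searched on both strands (CTTTGAT or ATCAAAG), it was present in 3.21% of the 32851 RefSeq promoter windows of the same length. The related CTTTGAA (4.46% of windows) and the E-boxes CAGATG (14.4%) and CAGCTG (13%) were in neither window. Windows of Nkd1 and Fzd10 were searched too and held neither CTTTGAT nor CTTTGAA, so 2 of the 4 windows searched lack the motif. Their RefSeq starts differ from the GENCODE gene starts, and they are not shown. The table had no entry for Fst, Nrip3 and Hey1. Since the windows shown were picked for holding the motif, its share over all windows is no test. A match is a description of letters only.

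Members were unevenly spread over the libraries, with 27 and 10 cells in control replicates 1 and 2 and 26 and 71 cells in CKO replicates 1 and 2. CKO replicate 2 held 53% of them. Dividing Atoh1-high cells numbered 80, 21, 92 and 204 in the same order, which is kept throughout. Kept cells numbered 2911, 3931, 2007 and 3697, from libraries of 14998150 to 33709450 UMIs. The groups differed in depth and quality. Members of the controls had medians of 4714 and 2216 UMIs and members of the CKO libraries 13643 and 10359, with median mitochondrial shares 3.93% and 4.42% against 2.84% and 2.38%. Summed over members, the libraries gave 175554, 49571, 306606 and 661392 UMIs. Control replicate 2 thus contributed the fewest and shallowest members. In all, 18 barcode sequences were kept in more than 1 library, and 0 were members in more than 1. Xist, expressed from the inactive X chromosome of females, stood at 0, 1755, 1063 and 328 CPM (UMIs scaled to a common total) in the members, so the pools differ in sex.

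Members were chosen by their measured UMIs of Atoh1, Neurod1, Meis2 and the cycling and histone genes. Members against other cells are therefore given as a description with no test, and a rule gene that is high or low there is no finding. Atoh1 ranged from 2 to 15 UMIs per member, with a median of 3. Just inside its threshold were 55 members with 2 UMIs, and just outside were 178 cells with 1 UMI that met every other limit. Fst stood at 381 CPM in the former and 291 CPM in the latter, Nrip3 at 40.3 and 17.8 CPM, Fzd10 at 174 and 129 CPM, and Hey1 at 99.2 and 128 CPM. The cells outside were shallower, with a median of 2243 UMIs against 4528, so the line at 2 UMIs also sorts cells by depth.

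The other 4 marker genes were chosen with earlier results of these data known, so their levels are a description and no independent check of the label. Fst, which encodes follistatin, a secreted antagonist of activins and BMPs, stood at 330, 464, 437 and 375 CPM in the members and at 136, 69.0, 142 and 156 CPM in the other kept cells. Every library was higher in the members, by 1.22 to 2.59 on the log2(CPM + 10) scale used for all such ratios. Nrip3, a nuclear receptor interacting protein, stood at 39.9, 40.3, 65.2 and 39.3 CPM against 20.4, 5.20, 13.5 and 21 CPM, from only 7, 2, 20 and 26 UMIs. Fzd10, a Wnt receptor, stood at 148, 101, 121 and 174 CPM against 92.7, 91.1, 50.5 and 94.7 CPM. Hey1, a repressor downstream of Notch, stood at 125, 40.3, 101 and 99.8 CPM against 52.6, 17.7, 64.0 and 61.2 CPM. By CPM, all 4 markers were higher in the members in all 4 libraries, with the smallest margin for Fzd10 in control replicate 2 (log2 ratio 0.13). In that library the level of Hey1 came from 2 members with 1 UMI each.

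These markers did not set the members apart from the dividing Atoh1-high cells. The mean log2 ratio of members over dividing cells was 0.23 for Fst, 0.12 for Nrip3, -0.24 for Fzd10 and 0.31 for Hey1, and each had libraries on both sides of 0. The plot of levels by library shows red and blue points interleaved for these genes and both above the grey points.

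**Figure D1:**
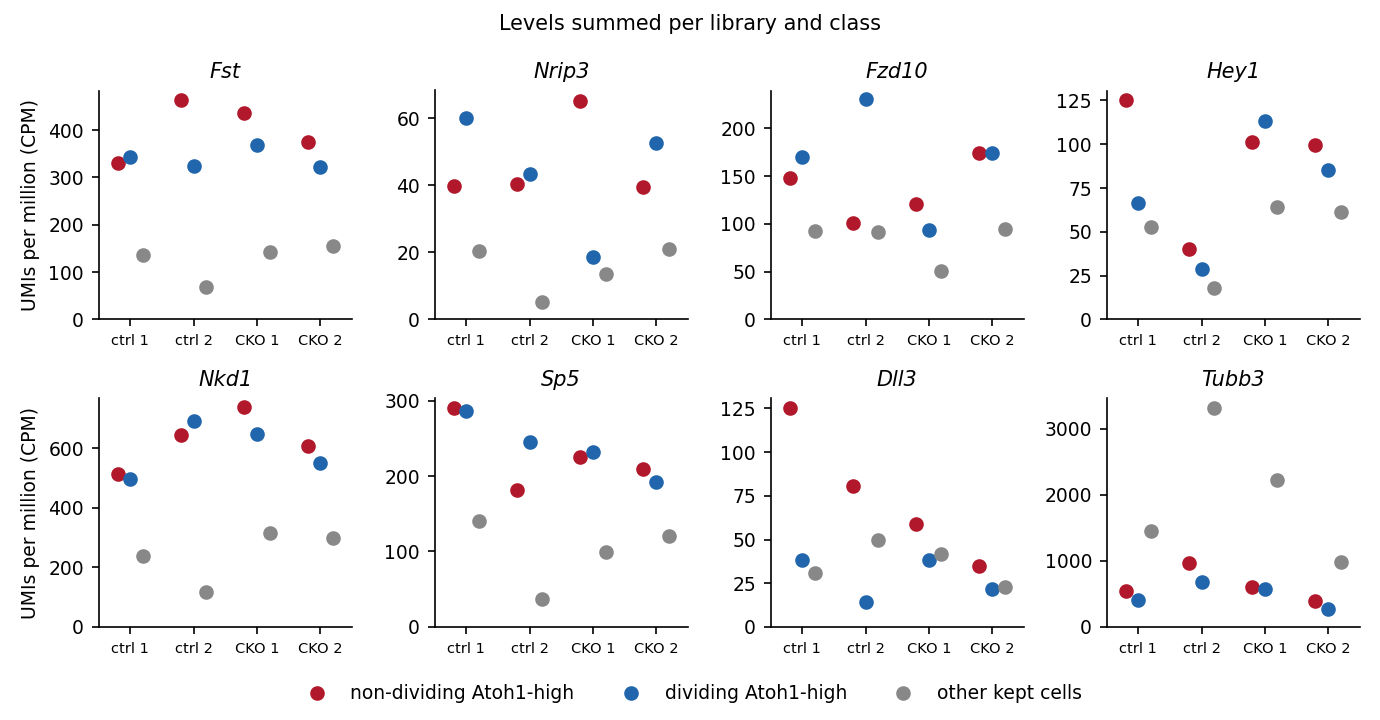
Levels of 8 genes (CPM, linear axis from 0) in each of the 4 libraries, summed over non-dividing Atoh1-high cells (red), dividing Atoh1-high cells (blue) and other kept cells (grey, which include the dividing cells). For Fst, Nrip3, Fzd10, Hey1, Nkd1 and Sp5 the red points lie above the grey ones in every library and near the blue ones, for Dll3 the red points lie above both, and for Tubb3 they lie below the grey ones.

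Single members differed in how many of the 4 markers they carried. A UMI of Fst was found in 90 of 134 members, of Fzd10 in 76, of Hey1 in 63 and of Nrip3 in 29. None of the 4 was found in 19 members, 1 in 26, 2 in 43, 3 in 38 and all 4 in 8. After thinning each cell to 2000 UMIs, which 122 members reached, Fst was found in 45.1% of members and 46.1% of dividing Atoh1-high cells. The share was 15% of other kept cells and 1.82% of 55 GABAergic-like cells. These last came through the same tdTomato-positive sort, and whether they lie outside the Atoh1 lineage was not tested. Unthinned, the share with Fst was 67.2% of members and 4.62% of GABAergic-like cells, whose median depth was 3447 to 3720 UMIs per library. Thinned shares with Fzd10 were 27.9%, 28.1%, 14.1% and 9.09% in the same order of classes, so Fzd10 had the highest share of the 4 markers in GABAergic-like cells. Hey1 was found in 18.0%, 18.3%, 8.08% and 3.64%, and Nrip3 in 7.38%, 7.99%, 2.48% and 0%, where 0 of 55 cells allows a share with a UMI of up to 5.45%. Unthinned, 2 of 65 GABAergic-like cells had a UMI of Nrip3. These shares are pooled over the libraries. In control replicate 2, 0 of 6 thinned members had a UMI of Hey1 and 0 of Nrip3, against 2.57% and 0.748% of other kept cells. The excess of these 2 markers was thus not seen there at equal depth, and 6 cells are too few to tell the shares apart. In the same library Fst was found in 4 of 6 members and Fzd10 in 3, against 7.53% and 13.3%. A UMI of Atoh1 itself was found in 21.8% of the thinned GABAergic-like cells, against 16.9% of other kept cells. Whether this is background RNA or expression was not tested.

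Among genes of at least 50 CPM, those with the largest least log2 ratio over the 4 libraries were, after Atoh1 itself and Fst, Thsd7b, Nkd1, Pcp4, Hsd11b2, Ifitm2, Sp5, Gm38534, Rfx4, Bcas1, Gsta4, Cxcr4, Pepd and Gm10260. Nkd1, a feedback inhibitor that Wnt signalling switches on, stood at 513, 646, 737 and 608 CPM in the members against 237, 116, 315 and 299 CPM in other kept cells. Sp5, a transcription factor and direct Wnt target, stood at 291, 182, 225 and 209 CPM against 141, 37.7, 99.9 and 120 CPM. Hsd11b2, the enzyme that inactivates glucocorticoids, stood at 604, 343, 310 and 435 CPM against 198, 113, 160 and 184 CPM. Cxcr4, the receptor for the chemokine Cxcl12 that draws granule cell precursors to the surface, stood at 194, 182, 251 and 174 CPM against 114, 112, 117 and 98.8 CPM. For these 4 genes, which that ranking picked, the members' range lies above that of the other cells. Of 4161 genes at this level, 3 were more than 2-fold higher and 79 more than 2-fold lower in all 4 libraries, genes of the rule included. The lower side was led by genes of the rule and by Prc1, Tpx2, Kif15, Ccnb1 and Kif23, which act in mitosis.

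Nkd1 and Sp5 belong to a list of 32 Wnt genes, of which 16 reached 20 CPM. Of these, 7 were higher in the members in all 4 libraries, namely Ctnnb1, Fzd10, Fzd7, Nkd1, Sp5, Tcf7l1 and Tcf7l2, and Apc and Fzd3 were lower in all 4. The list's median log2 ratio was 0.32, beside -0.08 over all 7601 genes of at least 20 CPM, of which 1014 were higher and 1556 lower in all 4 libraries. Nkd1 and Sp5 were at like levels in the dividing Atoh1-high cells, with mean log2 ratios of 0.07 and -0.08. Axin2, another feedback inhibitor, stood at 85.4, 80.7, 52.2 and 69.6 CPM in the members against 57.5, 46.6, 52.3 and 77.7 CPM, which overlap. Wnt1, a ligand, had 0 UMIs in all members.

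Of 29 rhombic lip genes, 19 reached 20 CPM, and 9 were higher and 2 lower in all 4 libraries. Over all 7601 genes at this level 1014 were higher and 1556 lower, which is the comparison for every list below. The 9 include the 5 markers, of which Atoh1 is high by the rule and the others were chosen with earlier results of these data known. The others were Barhl1, a homeobox factor induced by Atoh1, Cbfa2t2 and Cbfa2t3, which encode transcriptional corepressors, and Rassf4. Barhl1 stood at 553, 464, 561 and 582 CPM in the members against 385, 184, 481 and 473 CPM. Cbfa2t3 stood at 342, 383, 320 and 287 CPM against 196, 124, 150 and 195 CPM. Both lower genes, Lhx2 and Lhx9, mark earlier-born neurons of the cerebellar nuclei. Lmx1a, a roof plate and rhombic lip factor, had 1, 0, 1 and 1 UMIs in the members.

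Of the Notch list 10 of 26 genes reached 20 CPM, and Dll3, Hes6, Hey1 and Rbpj were higher and Dner and Numbl lower in all 4 libraries. Dll3, a ligand that inhibits Notch within the cell that makes it, stood at 125, 80.7, 58.7 and 34.8 CPM in the members. It stood at 38.0, 14.4, 38.0 and 21.8 CPM in dividing Atoh1-high cells and at 30.6, 50, 41.8 and 22.9 CPM in other kept cells. By CPM, Dll3 was thus higher in the members than in both other classes within each library. With cells thinned to equal depth, a UMI of Dll3 was found in 25.9%, 33.3%, 8.0% and 6.25% of members. The shares were 8.75%, 4.76%, 8.79% and 4.59% of dividing cells and 6.74%, 8.09%, 8.65% and 4.58% of other kept cells. At equal depth the excess was therefore not seen in CKO replicate 1, where 2 of 25 members had a UMI. Control replicate 2 had 2 of 6. Hes6, an inhibitor of Hes1, stood at 877, 585, 903 and 717 CPM against 550, 264, 584 and 527 CPM in other kept cells. The Notch effectors were sparse, with 1, 0, 0 and 3 UMIs of Hes1 and 0, 0, 8 and 1 of Hes5 in the members.

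In the hedgehog list, 9 of 16 genes reached 20 CPM, with a median log2 ratio of 0.22. By CPM, Boc, a coreceptor for sonic hedgehog, Ccnd1 and Mycn were higher in all 4 libraries, and no gene was lower in all 4. Gli1, the target most often used to read the pathway, had 0 UMIs in the 134 members, which allows a share of cells with a UMI of up to 2.24% and sets no limit on cells that express it. Unthinned, a UMI was found in 0.459% of other kept cells, so the members' 0 cannot be told from that share. In the BMP list 13 of 28 genes reached 20 CPM, with a median log2 ratio of -0.21. Fst, itself a marker, Nbl1 and Smad7 were higher, and Acvr2b, Id4 and Smad5 lower, in all 4 libraries. These 3 higher and 3 lower genes stand beside 1014 and 1556 of all 7601 genes of at least 20 CPM.

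Neuronal genes were low. Of 29 neuron differentiation genes, 23 were lower and 2 higher (Nfia and Snap25) in the members in all 4 libraries, with a median log2 ratio of -0.78. Tubb3, a neuronal tubulin, stood at a mean log2 ratio of -1.58, Stmn2 at -1.51, Gap43, a growth cone protein, at -1.36, Dcx, a microtubule protein of migrating neurons, at -1.12 and Cntn2, an adhesion molecule of granule cells leaving the cycle, at -1.06. By CPM, dividing Atoh1-high cells were lower still for Tubb3, Gap43 and Cntn2 in each library. The mean log2 ratios of members over dividing cells were 0.39, 0.48 and 0.26. With cells thinned to equal depth, 1 library went the other way for Tubb3 and 1 for Cntn2. Tubb3 was found in 66.7% of members (4 of 6) and 71.4% of dividing cells in control replicate 2. Cntn2 was found in 18.5% and 21.25% in control replicate 1. In the remaining libraries the members had the higher share of both genes. Summed over the list, members ranged from 9405 to 12326 CPM, dividing cells from 8756 to 10932 CPM and other kept cells from 16103 to 24118 CPM. The member range therefore overlaps that of the dividing cells and lies below that of the other cells. In control replicate 1 alone the members' sum was below that of the dividing cells, at 9405 against 9777 CPM.

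The rule left out cells with UMIs of 6 mitotic genes, and other G2/M genes were low with them. Of 25 G2/M genes outside the rule, 23 were lower in all 4 libraries, with a median log2 ratio of -2.29. Prc1, a protein of the mitotic spindle midzone, stood at 0, 0, 0 and 6.05 CPM in the members against 132, 48.2, 140 and 150 CPM in other kept cells. They were low rather than absent, since 129 of 134 members had at least 1 UMI of the list, with a median of 3 per cell against 22 per dividing cell.

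S phase genes followed only when set against dividing Atoh1-high cells. The summed S phase list stood at 1715, 2098, 1579 and 1370 CPM in the members, 3133, 3771, 3134 and 3623 CPM in dividing Atoh1-high cells and 1870, 1031, 1903 and 1977 CPM in other kept cells. The members thus lay below dividing cells in each library and on both sides of other kept cells. Of 25 S phase genes at 20 CPM, the helicase subunits Mcm2, Mcm3 and Mcm4 and the repair enzyme gene Ung were higher than in other kept cells in all 4 libraries, and Clspn, Fen1, Rrm2 and Tyms lower. The list's median log2 ratio was -0.06. At least 1 UMI of the list was found in 129 of 134 members, with a median of 8 per cell, against 21 per dividing cell. Ccnd1, the cyclin that drives entry into the cycle, stood at 182, 303, 212 and 262 CPM in the members against 152, 43.2, 150 and 198 CPM, higher in each library. Cdkn1c, an inhibitor of the cycle, stood at 51.3, 80.7, 58.7 and 25.7 CPM against 87.5, 275, 199 and 66.9 CPM, lower in each library. Of the 15 cell cycle exit and cyclin D genes at 20 CPM, 1 was higher and 5 lower in all 4 libraries, with a median log2 ratio of -0.08, as over all genes. The levels of S phase genes do not show that the members had left the cycle. The word non-dividing therefore stands only for the rule, Atoh1-high cells without UMIs of 6 cycling genes and with few histone UMIs.

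**Figure D2:**
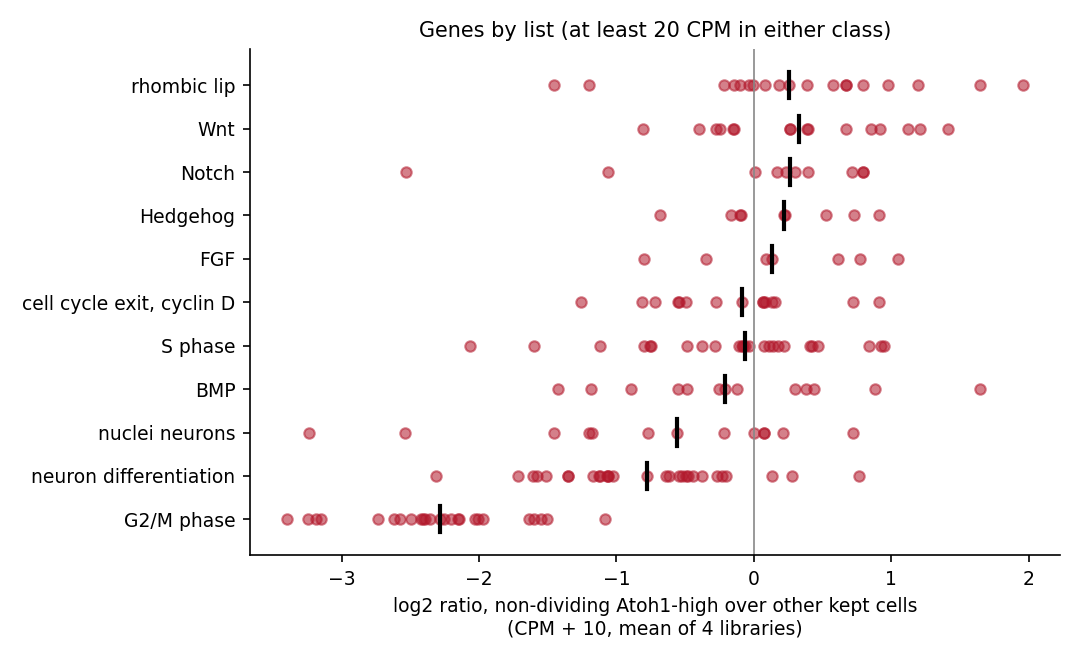
Each point is a gene of at least 20 CPM in either class, placed by its mean log2 ratio of members over other kept cells (CPM + 10, 4 libraries), and black bars are list medians. G2/M and neuron differentiation genes lie mostly left of 0, with medians of -2.29 and -0.78, and S phase genes lie on both sides of 0 with a median of -0.06.

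Against dividing Atoh1-high cells, 0 of 3985 genes were more than 2-fold higher in all 4 libraries and 90 were more than 2-fold lower, led by genes of the rule, Prc1 and Tpx2. Genes with the largest least ratio on the higher side were Dph6, Sned1, Atraid, Sdk2, Necab3, Aldoa, Kdm6b, Dll3, AI593442 and Chfr. Dph6, an enzyme of diphthamide synthesis, stood at 57.0, 80.7, 52.2 and 57.5 CPM in the members and at 24.5, 28.8, 24.1 and 29.9 CPM in dividing cells. Aldoa, the glycolytic enzyme aldolase A, stood at 251, 424, 258 and 245 CPM against 171, 187, 167 and 141 CPM. Kdm6b, a histone H3 lysine demethylase, stood at 182, 202, 134 and 139 CPM against 108, 64.9, 91.6 and 91.0 CPM. For these 3 genes the ranges of the classes do not overlap, while those of Sned1, Atraid, Sdk2, Necab3 and Dll3 do. The genes were ranked by this same contrast, so the separation is no test.

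Clustered among themselves, the members fell into 5 sub-clusters of 34, 31, 29, 20 and 20 cells, which stay unnamed. The first was led by B930036N10Rik, Gins4, a subunit of the replication helicase, and Tfdp1, a partner of E2F factors. The second was led by Olig3, a rhombic lip transcription factor at 54.1 CPM against 8.4 CPM in the other members, and Arid3a. Meg3, at 608 CPM against 129 CPM, Sphkap and Rian led the third sub-cluster. The fifth was led by 2810403D21Rik and Btf3l4. Their median depth ranged from 5179 to 11286 UMIs, and the fifth held 1, 0, 6 and 13 cells by library. The clusters were built on these genes, so they describe spread within the class and are no test.

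Markers of other cells were read as sums. Haemoglobin RNA, a measure of free or blood cell RNA, stood at 28.5, 343, 22.8 and 1.51 CPM in the members and at 1280, 4823, 2135 and 3.04 CPM in other kept cells. The 15 genes of microglia, vessels and mesenchyme summed to 22.8, 0, 3.26 and 4.54 CPM, with 13 to 15 of them at 0, and the 7 unipolar brush cell genes summed to 85.4, 0, 45.7 and 39.3 CPM. The 11 GABAergic genes summed to 96.8, 161, 81.5 and 39.3 CPM, against 101, 158, 52.4 and 56.6 CPM in other kept cells, with 7 or 8 at 0, including Gad1 in all 4 libraries. The 15 progenitor and radial glia genes summed to 1219, 1069, 1429 and 1205 CPM, against 1339, 706, 1883 and 1481 CPM, and of the 7 that reached 20 CPM 2 were higher and 0 lower in all 4 libraries. Control replicate 2 had the most haemoglobin RNA, and its part in the results below was not tested.

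Members made up 0.928% (95% Wilson interval 0.638 to 1.35) and 0.254% (0.138 to 0.468) of the kept cells of the controls and 1.30% (0.886 to 1.89) and 1.92% (1.53 to 2.42) of those of the CKO libraries. Both CKO libraries were higher than both controls. The means were 0.591 ± 0.476% and 1.61 ± 0.442% (SD, n = 2 each), a difference of 1.02 percentage points (two-sided exact permutation test, p = 0.33, the smallest that 2 against 2 libraries allow). The intervals cover counting error only. Depth acts on this share, because deeper cells reach 2 Atoh1 UMIs more easily and escape the limits of 0 less easily. With each cell thinned to 2000 UMIs the shares were 1.62%, 0.280%, 2.02% and 1.58%. The groups then overlapped, at a difference of 0.847 percentage points (exact permutation test, p = 0.667).

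Within the Atoh1-high cells that passed the limits on Neurod1 and Meis2, non-dividing cells made up 25.2% (18.0 to 34.2) and 32.3% (18.6 to 49.9) in the controls and 22.0% (15.5 to 30.3) and 25.8% (21 to 31.3) in the CKO libraries. The groups overlapped, at 28.7 ± 4.97% against 23.9 ± 2.68% (SD, n = 2 each; exact permutation test, p = 0.667). Thinned to 2000 UMIs the shares were 55.2%, 60.0%, 49.2% and 48.2%, so the size of the non-dividing class depends on depth. Among cells of 4000 or more UMIs and no more than 5% mitochondrial UMIs, called intact here, they were 21.4%, 12.5%, 23.5% and 24.6%, which turns the difference to 7.10 percentage points. Only 2 members of control replicate 2 were intact.

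**Figure D3:**
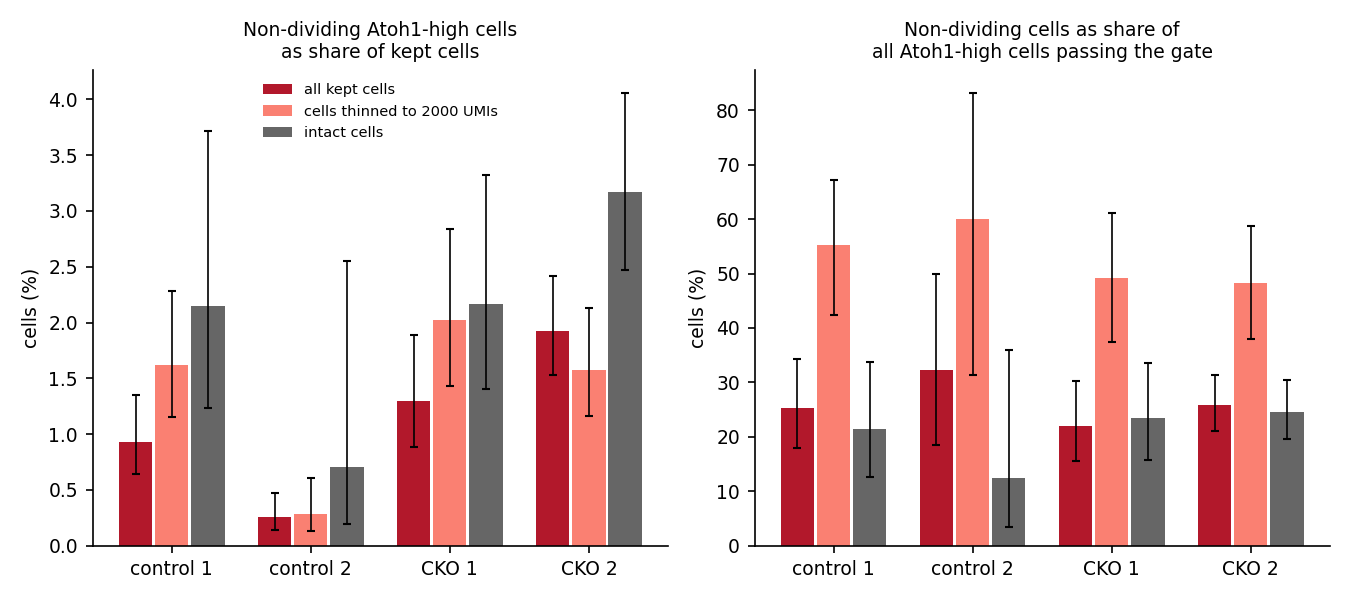
Bars give the share of non-dividing Atoh1-high cells (%) by library, of kept cells on the left and of all Atoh1-high cells passing the gate on the right, for all kept cells, cells thinned to 2000 UMIs and intact cells, and lines are 95% Wilson intervals. On the left, control replicate 2 is lowest in each of the 3 versions, and on the right the thinned shares lie between 48.2% and 60.0%, above the others.

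The deletion was read from En2 and En1 within the members. En2 (ENSMUSG00000039095; chromosome 5, 28165694 to 28172166 on GRCm38) stood at 193 and 247 TMM-scaled CPM in the controls against 29.4 and 28.8 in the CKO libraries, or 220 ± 37.9 against 29.1 ± 0.365 (SD, n = 2 each). Both CKO libraries were far below both controls, and En2 fell, with a log2 fold change of -2.83 (SE 0.40, edgeR quasi-likelihood test, Benjamini-Hochberg adjusted p = 0.00990). En1 (ENSMUSG00000058665; chromosome 1, 120602418 to 120607992) stood at 299 and 448 in the controls against 202 and 303 in the CKO libraries. The groups overlapped, with a log2 fold change of -0.44 (SE 0.32, edgeR adjusted p = 1.00). Without TMM scaling they did not, at 273 and 403 CPM against 179 and 254 CPM. With 3′ chemistry the deposited counts do not show from which part of En1 a UMI came, so its level cannot tell recombined from intact alleles.

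En2 was the 1 gene called among 4385 that passed the low-count filter, 0.0228% of them, and 0 were higher. At an unadjusted p under 0.05 there were 196 genes. DESeq2 also called 1 gene. The call of En2 was lost without CKO replicate 2 (log2 fold change -2.77, edgeR adjusted p = 0.985), and the edgeR fit without CKO replicate 1 called 20 genes. Without control replicate 1 and without control replicate 2 it called 5 and 6 genes. En2 was called in dividing Atoh1-high cells as well, with a log2 fold change of -2.30 (SE 0.29, edgeR adjusted p = 0.000147). There 3 of 9055 genes were called, 0.0331% of them, with 2 lower (0.0221%), En2 and AC149090.1 (-1.40), and 1 higher (0.011%), the histone gene Hist2h2ac (2.87). The deletion effect on En2 did not differ between the classes beyond its error (interaction -0.40 on the log2 scale, SE 0.45, edgeR adjusted p = 1.00). Across 7787 genes the interaction was called for 0, with 401 at an unadjusted p under 0.05 and 0 called by DESeq2.

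**Figure D4:**
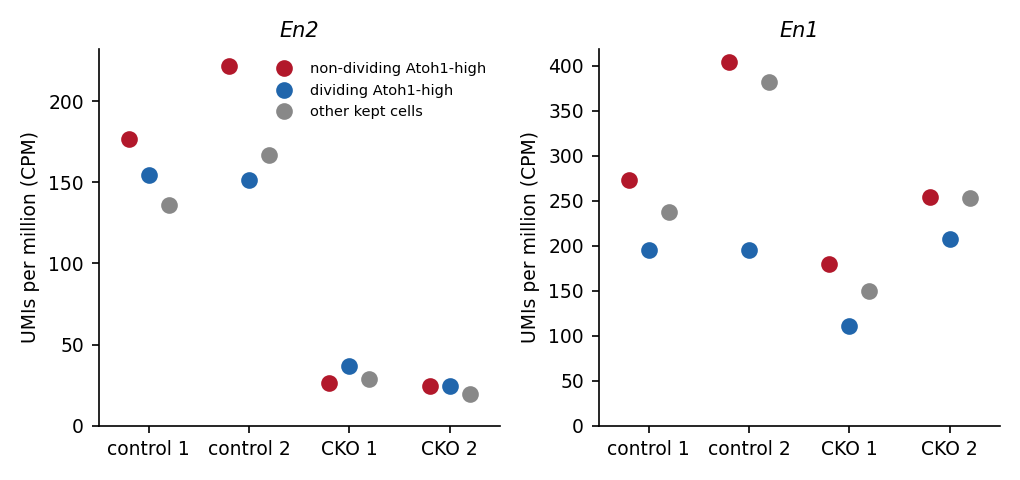
Levels of En2 (left) and En1 (right) in CPM by library, in non-dividing Atoh1-high cells (red), dividing Atoh1-high cells (blue) and other kept cells (grey). En2 is low in both CKO libraries in all 3 classes, while En1 of the members in CKO replicate 2 (254 CPM) lies near control replicate 1 (273 CPM).

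No marker of the class passed the test. Fst stood at 361 and 516 TMM-scaled CPM in the controls against 492 and 447 in the CKO libraries (log2 fold change 0.17, SE 0.29). Fzd10 stood at 162 and 112 against 136 and 207 (0.25, SE 0.36), and Hey1 at 137 and 44.8 against 114 and 119 (0.06, SE 0.41). The groups overlapped for all 3, and the direction was not stable across the alternative settings. Nrip3 did not pass the low-count filter. Atoh1, a gene of the rule, stood at 641 and 560 against 561 and 452.

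The genes nearest to a call are named without a call. On the higher side these were Ucma, a secreted matrix protein, at 24.9 and 44.8 TMM-scaled CPM in the controls against 139 and 137 in the CKO libraries (log2 fold change 2.21, SE 0.52, edgeR adjusted p = 0.567), and the ribosomal protein genes Rpl12 (0.97), Rps12 (0.85), Rps14 (0.87) and Rpl17 (0.85), whose reads can be shared with processed copies. On the lower side were the noncoding RNA C130073E24Rik (-3.63), the membrane thioredoxin Tmx2 (-1.60), the helicase subunit Mcm6 (-1.17) and the adhesion molecule Sdk2 (-1.80). Mcm6 stood at 286 and 471 in the controls against 180 and 133 in the CKO libraries. Only genes with both CKO libraries on one side of both controls could be named here, so that all 9 were so is no result. Of all genes tested, 19.9% met this condition on the higher side and 15.4% on the lower side. The least edgeR adjusted p of the 9 genes was 0.567. Without control replicate 1 the value of Tmx2 was -0.54, and without CKO replicate 2 that of C130073E24Rik was -6.66, a fitted value against 1 library with 0 UMIs and no bound.

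Signalling genes were read by list. Of the rhombic lip list 17 of 29 genes were tested, 0 were called, the median log2 fold change was 0.18 beside 0.02 over all genes tested, and 4 lay above and 1 below both controls, beside 19.9% and 15.4% of all genes tested. Of the Notch list 7 genes were tested and 0 called, with 1 above and 1 below both controls, and Dll3 stood at 137 and 89.7 against 66.0 and 41.5 (-1.28, SE 0.44). Of the BMP list 10 genes were tested and 0 called, with a median of 0.36, 3 above and 0 below both controls. Smad4, the shared partner of BMP and TGF-beta effectors, stood at 99.6 and 67.3 against 154 and 177 (0.87, SE 0.38), and Smad1, an effector of BMP receptors, at 24.9 and 22.4 against 47.7 and 73.9 (1.38, SE 0.63). Of the Wnt list 11 genes were tested and 0 called, with a median of 0.06, 2 above and 2 below both controls, and the receptor Fzd7 stood at 68.5 and 67.3 against 11.0 and 27.0 (-1.67, SE 0.68). These 4 genes had the only unadjusted p under 0.05 in the Notch, BMP and Wnt lists, and their edgeR adjusted p ranged from 0.885 to 1.00.

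Growth and differentiation lists had 0 called genes as well. Of the hedgehog list 6 genes were tested (median 0.12), of the FGF list 3 (-0.17), of the neuron differentiation list 26 (0.02), of the cell cycle exit list 10 (-0.02), of the S phase list 14 (-0.15), of the nuclei neuron list 5 (0.05), of the dissociation stress list 10 (-0.05) and of the p53 and apoptosis list 4 (0.08). Of the neuron differentiation list 1 of 26 genes lay above and 3 below both controls, near or under the 19.9% and 15.4% of all genes tested. In the plot of fold changes, En2 stands apart from the list genes.

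**Figure D5:**
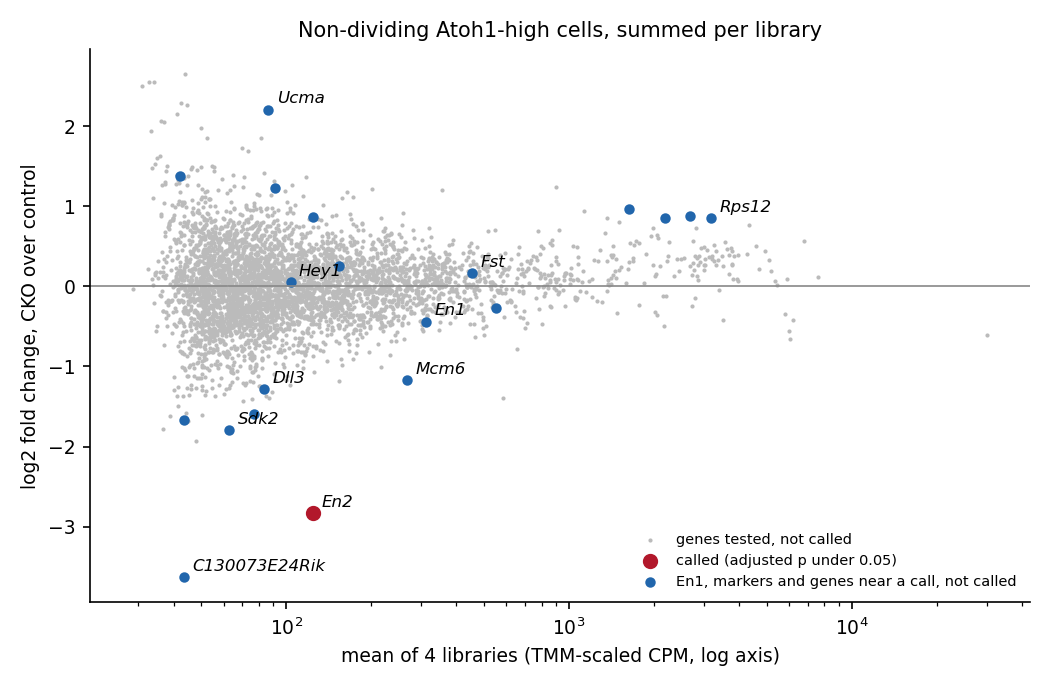
Log2 fold change of CKO over control in non-dividing Atoh1-high cells against the mean level of 4 libraries (TMM-scaled CPM, log axis), for 4385 genes. En2 (red, -2.83) is the called gene, blue points are En1, markers and genes near a call that did not pass, and C130073E24Rik (-3.63) lies lower still at a lower level.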

How the data were processed

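Cell Ranger 5.0.0 and mm10 are named in the file headers or the submitters' processing notes as used by the authors. The deposited values are raw UMI counts per gene and barcode. The annotation is not given in the sources used here. Gene positions are from GENCODE M21 (GRCm38), in which 32235 of 32285 gene IDs were found.

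Members and gene lists were chosen with earlier results of these data known. Cells were selected with Python 3.11.15 (numpy 2.4.6, scipy 1.17.1, pandas 2.3.3). No doublets were removed in the main analysis. A simulated-doublet score removed 68, 124, 32 and 109 kept cells in an alternative, 1 of them a member. GABAergic-like cells had at least 3 UMIs summed over Gad1, Gad2, Slc32a1 and Pax2. Members were clustered on 500 variable genes, 10 principal components and 15 neighbours (scikit-learn 1.9.0, leidenalg 0.10.2, igraph 0.11.9, resolution 1.0).

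Counts were summed per library and class and tested with edgeR 4.0.16 (R 4.3.3; TMM, filterByExpr, quasi-likelihood F test, two-sided, Benjamini-Hochberg adjustment over all genes tested, threshold 0.05), with the library as block in the interaction. DESeq2 1.42.0 was an alternative, and the fits were tested on simulated data. Standard errors (SE) are log2 fold changes divided by the root of the F statistic. Shares were compared by exact permutation tests. Genes named are En1, En2 and the 5 markers, called genes with both CKO libraries on one side of both controls (up to 10 each way, filled to 5 with the smallest unadjusted p in the members), list genes with an unadjusted p under 0.05, and, for levels, up to 15 leading genes against other kept cells and 10 against dividing cells, where rule genes lead the lower side. The genes filled in had to meet the same condition on both controls. Genes that are sex-linked, mitochondrial or encode haemoglobin were not ranked. Some genes that met the rule are not reported here. Genes outside this rule were chosen after their values were seen. A limit for a count of 0 uses 3 counts.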

Additional observations from a re-analysis of the deposited data

How the results depend on the processing

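The 4 libraries, the 10 members of control replicate 2 and their depth set what could be seen. In the members edgeR called 1 gene, against 13 with no low-count filter and 0 with cells thinned to 2000 UMIs, with Atoh1 of at least 3 UMIs, with no cycling or histone UMI and Meis2 at 0, and with equal cells per library. Leaving out 1 library gave 0 to 20 calls (0 without CKO replicate 2, 20 without CKO replicate 1). In dividing cells edgeR called 3 genes and DESeq2 1. There were 9 with no TMM factors, 24 with no low-count filter, 0 thinned, 1 among intact cells, 1 with doublets removed, 20 with Atoh1 of at least 1 UMI, 0 with equal cells, and 13 to 60 with 1 library left out. For the interaction, 0 became 2 with Atoh1 of at least 3 UMIs, 8 with at least 1, 4 under the strict limits, and 0 to 4 with 1 library left out. A group left with 1 library is assumed to vary like the other group.

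With a replicate block, 0 genes were called in the members and 18 in dividing cells. The interaction already has the library as its block, and no other block was run for it. The deviations of same-numbered libraries correlated at -0.09 over 2381 genes, and no label ties the numbers, so the pairing has no basis in the design.

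The difference in the share of members among kept cells kept its sign in all alternatives run, at 0.68 to 1.35 percentage points with 1 library left out. The difference in the share of non-dividing cells among Atoh1-high cells, -4.82, turned to 7.10 among intact cells and 1.62 under the strict limits. With 1 library left out it ranged from -8.33 to -1.31.

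Over 252 gene values under alternatives, 225 kept direction and side of the threshold and 10 gained a call. En2 kept its direction (-2.98 to -2.38) and lost its call in 6: the block, without CKO replicate 2, thinned, Atoh1 of at least 3 UMIs, strict limits and equal cells. Reversed were En1 with Atoh1 of at least 1 UMI (0.10) and equal cells (0.30); Fst without control replicate 1 (-0.049, with 0.42 without control replicate 2), thinned (-0.603), among intact cells (-0.0081) and with equal cells (-0.373); Fzd10 without CKO replicate 2 (-0.091, with 0.74 without control replicate 1) and thinned (-1.001); and Hey1 with no TMM factors (-0.046), without control replicate 2 (-0.188, with 1.46 without control replicate 1) and with Atoh1 of at least 3 UMIs (-0.082). The cause of these changes was not tested.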

Other observations

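Ribosomal protein genes were looked at as a group after their values had been seen. Of 83 Rpl and Rps genes tested in the non-dividing Atoh1-high cells, 81 had a positive log2 fold change of CKO over control, with a median of 0.36. Both CKO libraries lay above both controls for 61 of them, beside 19.9% of all genes tested, and 0 were called by edgeR, with 28 at an unadjusted p under 0.05. That count of 0 became 15 without CKO replicate 1, 6 with no low-count filter and 1 without control replicate 1. In dividing Atoh1-high cells 73 of 83 were positive, with a median of 0.25. The direction of Rpl12, Rps12, Rps14 and Rpl17 was the same without TMM factors. Depth and mitochondrial share move with the groups, and their part in this was not tested.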
